A study of Mus musculus with 2 samples.

Results

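Antimicrobial products of Paneth cells (8 genes) were followed at the level of ribosome-protected mRNA fragments (footprints) in mouse ileum. They were Lyz1, Mmp7, Ang4, Itln1, Pla2g2a, AY761184, Defa26 and Defa35, picked by symbol as Paneth granule proteins and defensins. All 8 were found among the 22756 gene rows of the count tables, each with reads in both libraries. The tissue came from wild type C57BL/6 mice 21 days after birth, and the groups were fed animals and animals without food for 48 h, with 1 library each (n = 1). The ileal markers Fabp6 and Slc10a2, for bile acid binding and uptake, had 28873 and 2458 counts in the fed library and 16615 and 2390 in the fasted one. The sources used here do not say how many mice went into a library or if their tissue was combined. A footprint is the mRNA stretch covered by a translating ribosome, so its count follows both mRNA amount and ribosome load, and no mRNA library was analysed beside it. In whole tissue, fewer cells of a type and less RNA per cell cannot be told apart. All differences below are between these libraries, with no replicate check and no p-value.

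Paneth cells sit at the base of the small intestinal crypts, next to the stem cells, and release granules of antimicrobial protein into the crypt lumen. Lysozyme (Lyz1) cuts bacterial cell walls. Alpha-defensins are small cysteine-rich peptides that disrupt bacterial membranes. In mice they are made as inactive precursors that the metalloproteinase matrilysin (Mmp7) cleaves. Ang4 is a secreted ribonuclease of the angiogenin family with microbicidal activity, and Itln1 is a lectin that binds microbial sugars and is made by goblet cells as well as Paneth cells. Pla2g2a encodes the secreted group IIA phospholipase A2, which in C57BL/6 mice carries a disabling frameshift. AY761184 is a defensin-like gene of the alpha-defensin cluster.

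Many alpha-defensin genes have near-identical copies, and the coding sequences set how far each copy could be counted. Sequences were taken from GENCODE vM21 (GRCm38). AY761184 had 2 close relatives with counts, Gm14851 (listed by RefSeq as Defa38) and Defa29. Across the 348 coding bases the 3 differed at 16 positions, and their longest stretch with no difference was 70 bases, longer than a footprint. The 120-base stretch with most differences (coding bases 156 to 275, counted from the A of the start codon) is shown, with capitals where the copies differ.
AY761184: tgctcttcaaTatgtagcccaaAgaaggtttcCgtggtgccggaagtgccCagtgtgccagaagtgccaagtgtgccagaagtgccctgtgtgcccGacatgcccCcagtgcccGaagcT
Gm14851: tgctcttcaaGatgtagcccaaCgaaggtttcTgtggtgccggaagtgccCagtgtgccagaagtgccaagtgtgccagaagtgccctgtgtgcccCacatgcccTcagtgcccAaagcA
Defa29: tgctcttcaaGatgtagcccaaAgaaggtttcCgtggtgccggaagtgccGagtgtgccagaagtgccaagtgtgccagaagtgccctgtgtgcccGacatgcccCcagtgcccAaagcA

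Defa26 had 1 close relative, Gm15292 (listed by RefSeq as Defa40). Over 279 coding bases they differed at 6 positions, 5 of them in the first part of the sequence, and they shared a run of 88 bases. The stretch from coding base 5 to 124 is shown in the same way.
Defa26: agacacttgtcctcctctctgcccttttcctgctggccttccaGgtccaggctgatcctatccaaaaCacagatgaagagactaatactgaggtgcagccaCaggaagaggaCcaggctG
Gm15292: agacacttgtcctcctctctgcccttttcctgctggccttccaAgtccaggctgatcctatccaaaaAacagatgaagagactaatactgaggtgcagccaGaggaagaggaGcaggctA

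Defa35 had Gm15293 and Defa34 as counted relatives, with 9 differing positions of 279 and a shared run of 65 bases. Coding bases 18 to 137 are shown.
Defa35: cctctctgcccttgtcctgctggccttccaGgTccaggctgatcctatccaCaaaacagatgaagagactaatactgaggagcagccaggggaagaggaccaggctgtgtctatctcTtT
Gm15293: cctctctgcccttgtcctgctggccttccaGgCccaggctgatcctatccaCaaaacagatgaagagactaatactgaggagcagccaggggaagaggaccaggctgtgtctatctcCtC
Defa34: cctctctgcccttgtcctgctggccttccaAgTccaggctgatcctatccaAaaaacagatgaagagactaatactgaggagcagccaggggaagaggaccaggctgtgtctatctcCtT

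A read that aligned to several places was not assigned to a gene, so coding windows with a copy at another place could give no counts. Of all windows of 28 bases, a length near that of a footprint, 41.1% of AY761184, 26.2% of Defa26 and 15.5% of Defa35 occurred in the transcripts of no other gene. The other members were easier to count. Pla2g2a was unique over 100% of its coding windows, Itln1 over 94.3%, Mmp7 over 87.5%, Ang4 over 81.5% and Lyz1 over 58.3%. The 97 shared windows of Mmp7 all matched the overlapping antisense gene AV064505, which was listed without a count for both libraries. Reads from an overlap of genes need not align to several places, so 87.5% may understate what could be counted for Mmp7. The shared windows of Lyz1 matched its neighbour Lyz2. Across the cluster, 13 of 29 alpha-defensin coding sequences had no unique window. Of those 13, 2 had a row in the count tables and neither had a read, while the 16 with at least 1 unique window held 39407 counts (fed) and 50935 (fasted). The count of a single defensin therefore leaves out reads from the stretches it shares, and its ratio rests on the part of the gene that differs from its copies.

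Gene counts summed to 5558620 for the fed mice and 5434252 for the fasted mice. Reads that aligned to several places made up 41.4% and 39.9% of counted reads, and reads overlapping no counted feature 13.4% and 21.0%. Levels are given as CPM, each gene's counts relative to a common library size, with library sizes scaled by TMM, which sets the typical gene near a ratio of 1. Plain CPM, which divide each count by the library's gene total alone, put every fasted/fed log2 ratio 0.32 lower. Where this changed the call of a named gene, its plain CPM call or value is given too. A gene counted as measured if its summed counts reached 30. It was called higher or lower with fasting when its ratio was at least 1.5-fold and the 95% exact (Clopper-Pearson) interval excluded 1. These intervals treat each read as independent and cover counting error in that sense only. Reads from PCR without molecular identifiers are not independent molecules, so the intervals may be too narrow. They do not cover differences between mice.

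The members did not share 1 direction. AY761184, Defa35, Pla2g2a and Mmp7 were higher in the fasted library, Defa26 was lower, and Lyz1, Itln1 and Ang4, the 3 with most counts, were neither. So 4 of the 8 were higher and 1 was lower, where 17.3% of the 11333 measured genes were higher and 17.3% lower. With plain CPM 3 of the 8 were higher and 1 lower, against 8.86% and 31.2% of measured genes. Defa35, called higher under both scalings, had 19 fed and 78 fasted counts. It met the count minimum only through the library in which it was higher, so its part in these tallies is weak. The median log2 ratio of the members was 0.33 (0.012 with plain CPM), beside 0.0028 (-0.32 with plain CPM) over measured genes. Members were chosen with results of these data known, so these counts are a description. The log2 ratios spanned 3.06, from -0.66 for Defa26 to 2.39 for Defa35, so the upper end rests on the few fed counts of Defa35.

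**Figure D1:**
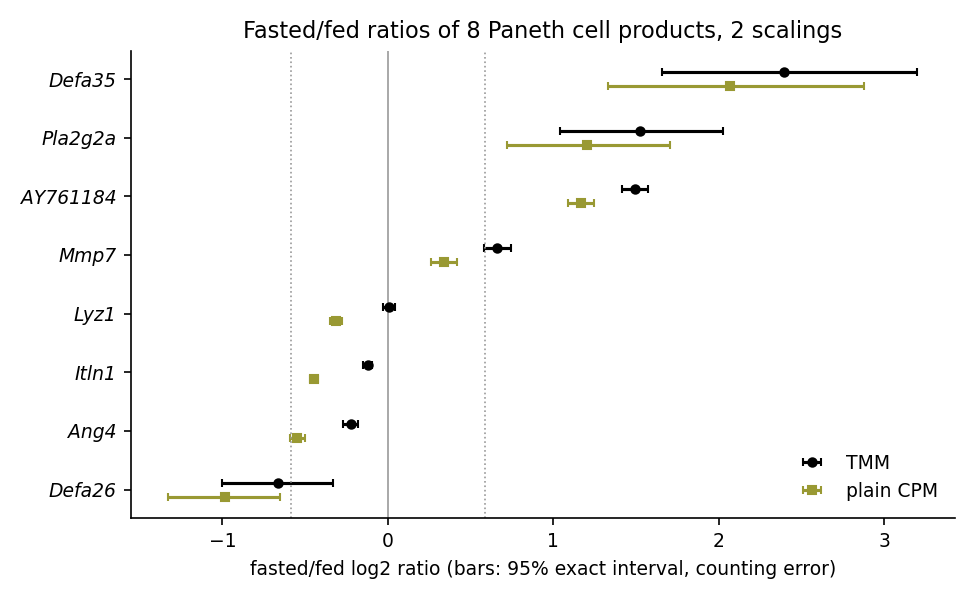
Fasted/fed log2 ratio (x axis) of each of the 8 Paneth cell products (y axis), with TMM scaling (black circles) and plain CPM (olive squares). Bars are 95% exact intervals for counting error, and dotted lines mark 1.5-fold. Defa35, Pla2g2a and AY761184 lie beyond the upper dotted line under both scalings, and Mmp7 only under TMM.

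Among the granule enzymes, Lyz1 (ENSMUSG00000069515, chr10:117287797-117292868, minus strand, 4 exons) had 14351 fed and 11275 fasted counts. Those were 2308 and 2320 TMM-scaled CPM, a log2 ratio of 0.0074 (95% interval -0.028 to 0.043). Under TMM the difference was within counting error. With plain CPM the log2 ratio was -0.32 (-0.35 to -0.28), short of 1.5-fold, so the sign depends on the scaling. By count Lyz1 ranked 40 among genes (fed) and 56 (fasted). Its neighbour Lyz2, the lysozyme of macrophages, had 593 and 362 counts, a log2 ratio of -0.36 (-0.55 to -0.17). Lyz2 was neither under TMM and lower with plain CPM. Both coding sequences are 444 bases long, so the levels compare per length, 2308 against 95.4 TMM-scaled CPM in the fed and 2320 against 74.5 in the fasted library. The pair differed at 22 coding positions and is shown, since Lyz2 held all 174 windows that Lyz1 shared with another gene, over coding bases 37 to 156, where 14 of these lie (capitals).
Lyz1: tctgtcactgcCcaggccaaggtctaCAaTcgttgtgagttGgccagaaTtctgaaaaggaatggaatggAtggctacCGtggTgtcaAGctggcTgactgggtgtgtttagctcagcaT
Lyz2: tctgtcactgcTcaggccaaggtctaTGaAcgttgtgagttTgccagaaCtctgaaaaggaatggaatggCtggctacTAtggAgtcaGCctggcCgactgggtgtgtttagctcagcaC

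Mmp7 (ENSMUSG00000018623, chr9:7692090-7699585, plus strand, 6 exons), the protease that activates the alpha-defensins, had 2343 fed and 2898 fasted counts. That was 377 and 596 TMM-scaled CPM, 1.58-fold higher in the fasted library (log2 ratio 0.66, 0.58 to 0.74). With plain CPM the values were 422 and 533, 1.27-fold (log2 ratio 0.34, 0.26 to 0.42), so the fasted library was above the fed under both scalings but passed 1.5-fold only under TMM. By ratio Mmp7 stood above 83.9% of measured genes.

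Pla2g2a (ENSMUSG00000058908, chr4:138831857-138835186, plus strand) had 52 fed and 117 fasted counts, or 8.36 and 24.1 TMM-scaled CPM. It was 2.88-fold higher in the fasted library (log2 ratio 1.53, 1.04 to 2.03; 1.20 with plain CPM). GENCODE classes the gene as a polymorphic pseudogene and gives it 442 coding bases, which is no multiple of a codon, so these footprints do not show that working phospholipase was made. It had few counts for a member, and 8571 was its rank by count in the fed library.

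Ang4 (ENSMUSG00000060615, chr14:51763878-51773590, minus strand, 2 exons), the ribonuclease, had 9919 fed and 6634 fasted counts. TMM-scaled CPM were 1596 and 1365, a log2 ratio of -0.22 (-0.27 to -0.18), below 1.5-fold. With plain CPM it was -0.55 (-0.59 to -0.50), also short of the threshold. The interval excluded 1 under both scalings, so the gap was beyond counting error, while its size was below the call.

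Itln1 (ENSMUSG00000038209, chr1:171518122-171535294, minus strand, 8 exons), the lectin, was the member with most counts, 29014 fed and 20829 fasted. These were 4667 and 4287 TMM-scaled CPM, a log2 ratio of -0.12 (-0.15 to -0.097). The value with plain CPM was -0.45 (-0.47 to -0.42), and neither reached 1.5-fold. Since goblet cells also make Itln1, goblet markers are given beside it. Of 11 measured goblet markers 4 were lower, 0 higher and 7 neither (7 lower with plain CPM), and the summed level of the 12 listed was 5.69% of gene counts (fed) and 3.51% (fasted). Agr2, which helps mucin fold, had a log2 ratio of -2.21 and Muc2, the gel-forming mucin, -1.26. Zg16, a goblet lectin, had 0.53 and Fcgbp, a mucus protein, 0.15, both neither. The part of goblet cells in the Itln1 value was not tested.

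The defensins had the widest range. AY761184 (ENSMUSG00000058618, chr8:21702519-21703645, minus strand, 2 exons) had 1929 fed and 4239 fasted counts. TMM-scaled CPM rose from 310 to 872, 2.81-fold (log2 ratio 1.49, 1.41 to 1.57; 1.17 with plain CPM). It was the only one of the 5 members with over 1000 counts that passed 1.5-fold under both scalings, and by ratio it stood above 96.6% of measured genes.

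Defa35 (ENSMUSG00000061845, chr8:21065038-21065996, plus strand, 2 exons) had 19 fed and 78 fasted counts, or 3.06 and 16.1 TMM-scaled CPM. The ratio of 5.25-fold (log2 ratio 2.39, 1.66 to 3.20; 2.07 with plain CPM) was the highest of the members, and its interval, 3.15- to 9.19-fold, the widest. Only 39 of its 252 coding windows were unique, and summed with its near-identical copies the log2 ratio was 1.28.

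Defa26 (ENSMUSG00000060070, chr8:21618183-21618972, plus strand, 2 exons) had 227 fed and 112 fasted counts, or 36.5 and 23.0 TMM-scaled CPM. It was 1.58-fold lower in the fasted library (ratio 0.631, 0.499 to 0.795) and 1.98-fold lower with plain CPM (-0.99, -1.33 to -0.65). Of the 8 members it was the 1 called lower.

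**Figure D2:**
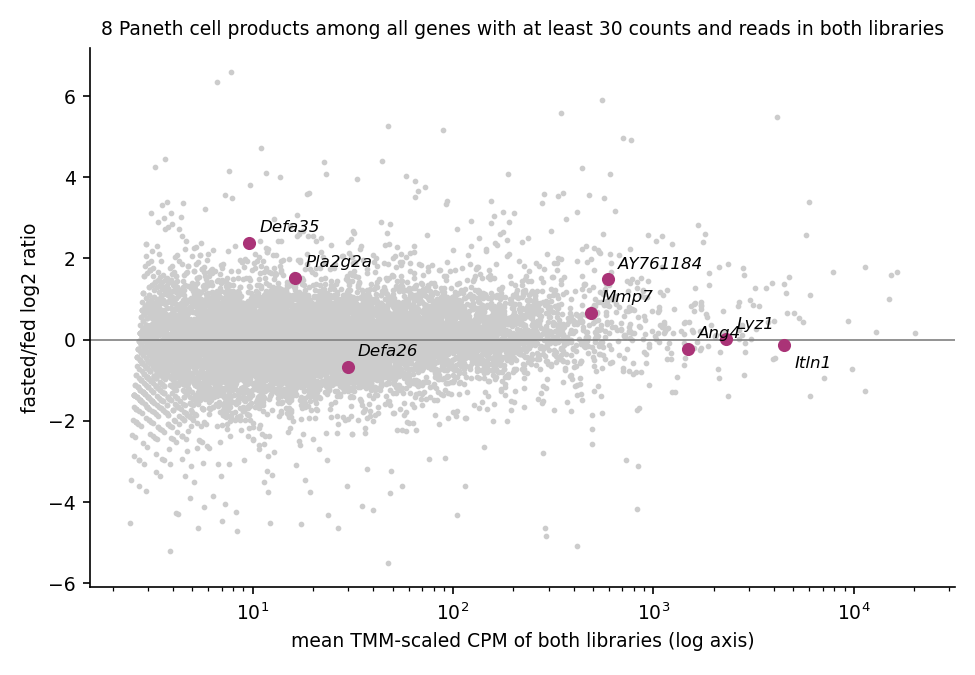
Mean TMM-scaled CPM of both libraries (x axis, log) and fasted/fed log2 ratio (y axis) of genes with at least 30 counts and reads in both libraries (grey points), with the 8 Paneth cell products in purple. Itln1, Lyz1 and Ang4 lie near 0 at high CPM, AY761184 at 1.49, and Defa26 at -0.66.

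The order of the ratios was Defa35, Pla2g2a, AY761184, Mmp7, Lyz1, Itln1, Ang4, Defa26. Each of the 7 neighbouring pairs was compared by the odds ratio of its counts, which does not depend on library scaling. For Defa35 against Pla2g2a it was 1.82 (95% exact conditional interval 0.97 to 3.52) and for Pla2g2a against AY761184 it was 1.02 (0.73 to 1.45), so these neighbours did not differ beyond counting error. The other 5 pairs did. AY761184 stood 1.78-fold (1.64 to 1.92) above Mmp7, Mmp7 1.57-fold (1.48 to 1.67) above Lyz1, Lyz1 1.09-fold (1.06 to 1.13) above Itln1, Itln1 1.07-fold (1.04 to 1.11) above Ang4, and Ang4 1.36-fold (1.07 to 1.72) above Defa26.

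Members were also set against Lyz1 within each library, which removes the scaling. For every 1000 Lyz1 counts there were 134 counts of AY761184 (fed) and 376 (fasted), an odds ratio of 2.80 (95% exact conditional interval 2.64 to 2.97). Mmp7 went from 163 to 257 (odds ratio 1.57) and Pla2g2a from 3.62 to 10.4 (2.86, 2.05 to 4.05). Defa35 went from 1.32 to 6.92 (5.22, 3.13 to 9.14). Itln1 went from 2022 to 1847 (0.914, 0.886 to 0.942), Ang4 from 691 to 588 (0.851, 0.818 to 0.886) and Defa26 from 15.8 to 9.93 (0.628, 0.496 to 0.792). All 7 share the Lyz1 counts, so their errors are not separate.

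The members together took 1.04% of gene counts in the fed library (57854 counts, 95% exact interval 1.03% to 1.05%) and 0.850% in the fasted library (46182 counts, 0.842% to 0.858%). Their summed log2 ratio was 0.030 under TMM and -0.29 with plain CPM, so the direction of the sum depends on the scaling. Itln1 went from 50.2% to 45.1% of member counts and Ang4 from 17.1% to 14.4%. AY761184 went from 3.33% (3.19% to 3.48%) to 9.18% (8.92% to 9.45%), and Mmp7 from 4.05% to 6.28%, while Lyz1 held 24.8% and 24.4%. Without the 3 defensins, the other 5 members had a summed log2 ratio of -0.060 (-0.38 with plain CPM), and the 3 defensins 1.38 (1.06 with plain CPM), nearly all of it AY761184.

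**Figure D3:**
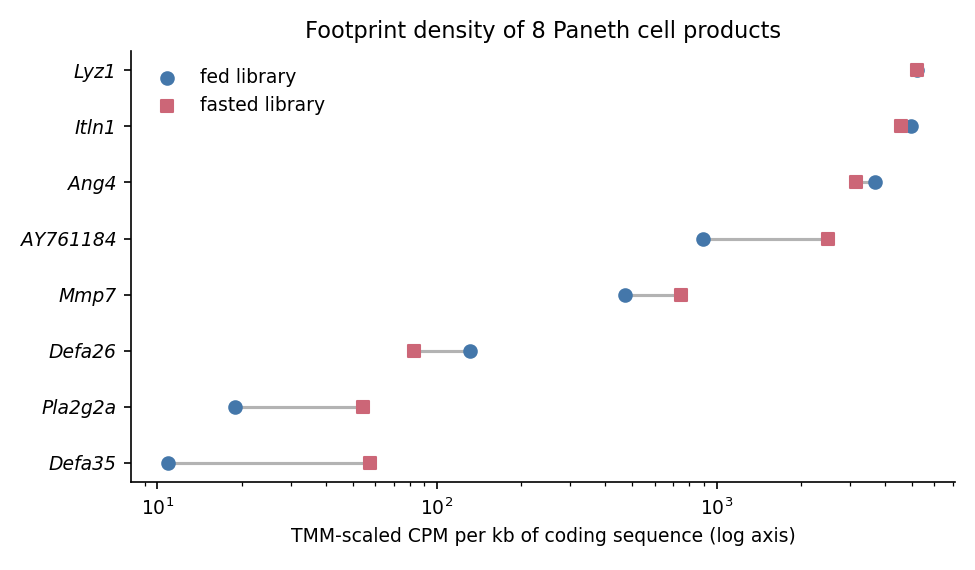
TMM-scaled CPM per kilobase of coding sequence (x axis, log) of the 8 Paneth cell products (y axis) in the fed (blue circles) and fasted (red squares) library, 1 library each. AY761184 moves from 892 to 2507, toward Ang4, while Lyz1, Itln1 and Ang4 keep the first places.

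Per kilobase of coding sequence, Lyz1 had the highest TMM-scaled level, 5199 CPM per kb (fed) and 5226 (fasted). Itln1 followed with 4970 and 4565, Ang4 with 3693 and 3160, AY761184 with 892 and 2507, and Mmp7 with 471 and 745. In the fed library the lowest levels were those of Defa26 (131), Pla2g2a (18.9) and Defa35 (11.0), the last 2 with overlapping exact Poisson intervals. In the fasted library Defa26 had 82.6, Defa35 57.5 and Pla2g2a 54.5, and the intervals of neighbours in that order overlapped. Divided by unique 28-base windows in place of coding length, a measure added after the data were seen, AY761184 had 14.6 fed and 32.1 fasted counts per window. It then ranked above Itln1 (24.2) and Ang4 (20.1) in the fasted library, behind Lyz1 (46.4). By this measure fed Defa26 (3.44) came close to Mmp7 (3.46), and fed Defa35 (0.487) stood above Pla2g2a (0.125). In the fasted library Defa35 (2.0) stood above Defa26 (1.70), with Pla2g2a last (0.282). Over both libraries 7 ranks moved and 9 stayed. Defa26 ranked 6 by both measures in the fed library and went from 6 to 7 in the fasted one. Defa35 went from 8 to 7 (fed) and from 7 to 6 (fasted), so both kept low places among the 8 members.

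The 3 member defensins belonged to different sequence groups of the cluster on chromosome 8, and within each of these 3 groups the genes with 30 or more counts had the same direction under TMM. Groups were formed from coding sequences joined at 95% identity or more, after the values had been seen. In the group of AY761184, of coding length 348 and all on the minus strand, Gm14851 rose from 486 to 1175 TMM-scaled CPM (log2 ratio 1.27, 1.21 to 1.34) and Defa29 from 66.3 to 154 (1.21, 1.04 to 1.39). All 3 counted rows were higher under both scalings, and the log2 ratio of their sum was 1.35 (plain CPM, 1.03).

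In the group of Defa35, Gm15293 had 37 fed and 91 fasted counts (log2 ratio 1.65, 1.09 to 2.25) and Defa34 93 and 114 (0.65, 0.24 to 1.06). All 3 rows were higher under TMM and 2 of them with plain CPM, where Defa34 was neither. The log2 ratio of their sum was 1.28 (0.99 to 1.58; 0.96 with plain CPM), against 2.39 for Defa35 alone. That value is under the 1.53 of Pla2g2a and the 1.49 of AY761184, both of which its interval includes. In the pair with Defa26, Gm15292 had 135 fed and 38 fasted counts and was 2.78-fold lower (log2 ratio -1.47, -2.03 to -0.94). Both rows of that pair were lower under both scalings, with a summed log2 ratio of -0.92 (-1.24 with plain CPM), and they were the 2 lower rows among the 12 measured alpha-defensin rows. Of those 12, 9 were higher and 1 neither under TMM, and 5 higher and 5 neither with plain CPM. Those 5 were the 3 rows of the AY761184 group and 2 of the Defa35 group, Defa35 and Gm15293, which had few counts. The AY761184 group is defensin-like, and AY761184 is 63.5% identical to Defa26 and 60.9% to Defa35. Since copies share sequence, rows of a group are not independent measurements.

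**Figure D4:**
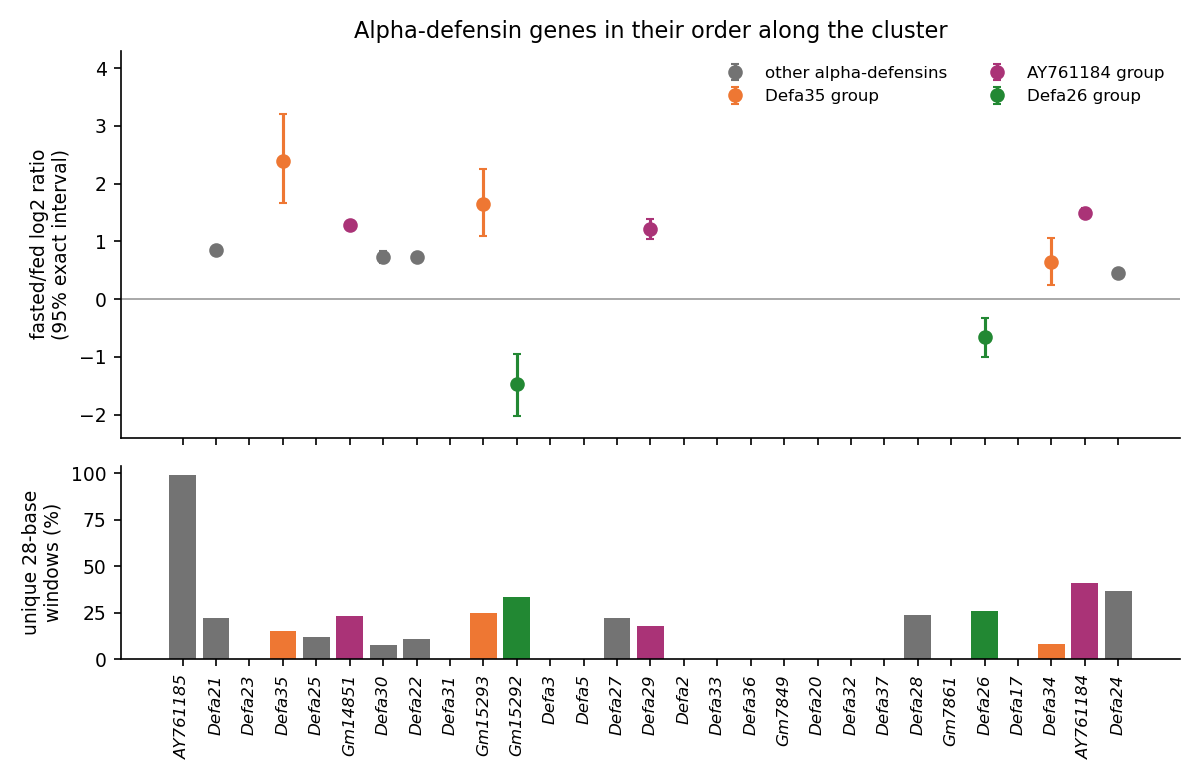
Alpha-defensin genes in their order along the cluster (x axis), with the fasted/fed log2 ratio and 95% exact interval of rows with at least 30 counts (upper panel) and the percent of 28-base coding windows found in no other gene (lower panel). Purple, orange and green mark the groups of AY761184, Defa35 and Defa26. The 2 green points lie below 0 and the other 10 points above it, and genes with no bar had no unique window.

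The alpha-defensins with most counts were no members. Defa24 had 19597 fed and 20816 fasted counts (log2 ratio 0.44, 0.41 to 0.47; 0.12 with plain CPM, not reaching 1.5-fold in either). Defa21 had 7684 and 10869 (0.86), Defa22 4957 and 6449 (0.74) and Defa30 1288 and 1670 (0.73), all higher under TMM and neither with plain CPM. Over the 9 measured alpha-defensins outside the members, 7 were higher, 1 lower and 1 neither (3 higher and 1 lower with plain CPM), at a median log2 ratio of 0.74 (0.41 with plain CPM). The odds ratio of the member sum to the sum of these other defensins, fasted over fed, was 0.639 (95% exact conditional interval 0.627 to 0.651).

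Among 7 other measured Paneth cell products, 3 were lower, 1 higher and 3 neither (median log2 ratio -0.18; 3 lower and 0 higher with plain CPM). The odds ratio of the member sum to theirs was 1.45. Mptx2, a mucosal pentraxin, had 4464 fed and 1444 fasted counts (-1.27, -1.36 to -1.19), and its relative Mptx1 130 and 9 (-3.50, -4.66 to -2.53). Clps, which encodes colipase, had 831 and 416 (-0.64, -0.82 to -0.47). All 3 were lower with plain CPM too. Mptx1 met the count minimum only through the fed library, in which it was higher, so its part in the tally is weak. With a minimum of 200 counts 2 of these products were lower and 1 higher. Habp2, a hyaluronan-binding serine protease, had 451 and 561 counts (0.67, 0.49 to 0.85) and was higher under TMM only. Pnliprp2, a pancreatic lipase relative (-0.10), the chemokine Ccl6 (-0.18) and Nupr1, a nuclear stress protein and the 1 of the 7 that is not secreted (0.37), were neither.

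Genes that specify or regulate Paneth cells were mostly neither, as were genes at large (7415 of 11333 measured). Of 20 measured regulators and niche genes, 1 was higher, 4 lower and 15 neither (7 lower and 12 neither with plain CPM), at a median log2 ratio of -0.0020. Over all measured genes, 17.3% were higher and 17.3% lower (8.86% and 31.2% with plain CPM). Sox9, needed for Paneth cells to form, had 309 fed and 243 fasted counts (log2 ratio 0.0088), and Xbp1, a secretory stress factor, 968 and 961 (0.34). Atoh1, the secretory lineage factor, had 243 and 102 (-0.90, -1.25 to -0.56). Cd24a, a surface marker of Paneth cells, had -0.76, the Notch ligand Dll4 -0.76 and the kinase gene Lrrk2 -1.48, while Egf, a niche growth factor, had 26 and 51 counts (1.33, 0.62 to 2.07). Egf, the 1 called higher, met the count minimum only through the library in which it was higher, so its part in the tally is weak. With a minimum of 200 counts 0 of these genes were higher and 3 lower. Among the neither, the secretory factors Gfi1 (-0.90), Spdef (-0.28) and Bhlha15 (-1.08) were lower with plain CPM, on 31, 84 and 27 fed counts. With upper-quartile factors 5 of the 20 were lower. The Wnt pathway genes Tcf7l2 (0.42), Fzd5 (-5.6e-05), Ephb3 (-0.14) and Wnt3 (-0.10) were neither under both scalings. The same held for the autophagy genes Atg16l1 (0.21) and Atg5 (-0.0056), for Rab2a (0.088), and for the niche ligands and receptor Tgfa (0.36), Dll1 (0.41) and Kit (0.28). Hes1, the Notch-induced repressor in the title of the study, had 194 and 141 counts (-0.10, -0.43 to 0.22), a difference not detectable at this depth under TMM. With plain CPM its log2 ratio was -0.43 (-0.75 to -0.11), with an interval that excluded 0 and a size short of 1.5-fold.

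**Figure D5:**
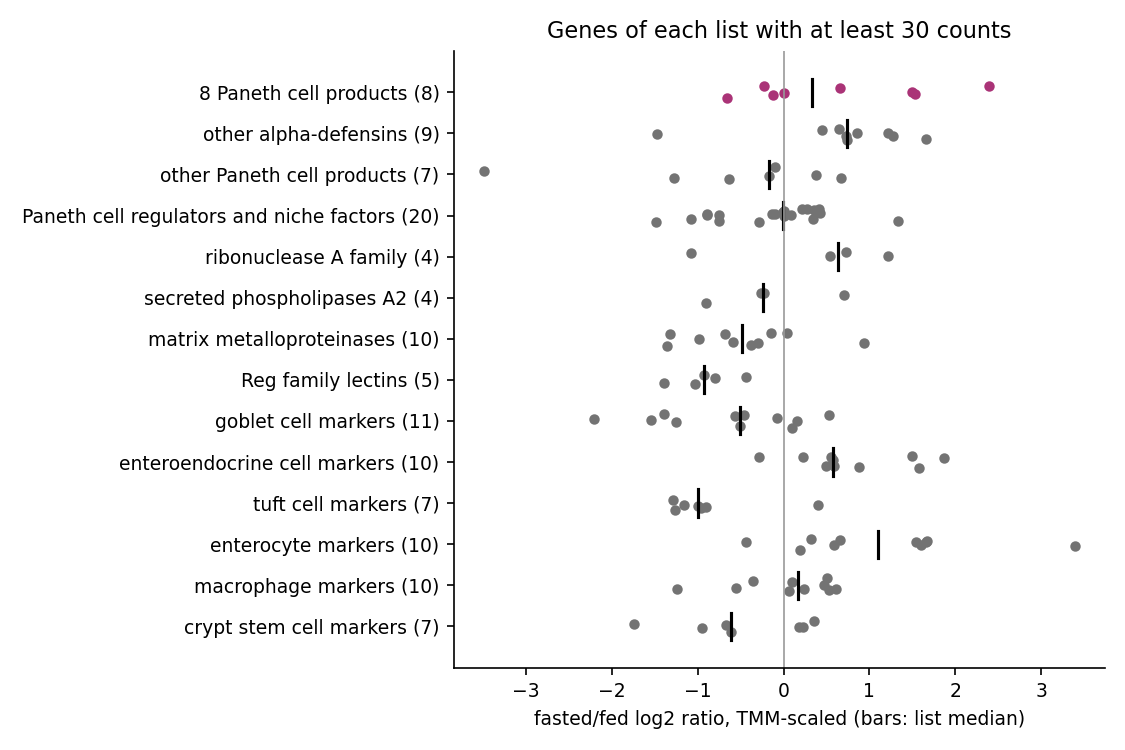
Fasted/fed log2 ratio under TMM (x axis) of genes with at least 30 counts in each list (y axis, number of genes in brackets). Points are genes, black bars list medians, the grey line the median of all measured genes, and the 8 Paneth cell products are purple. These products span -0.66 to 2.39, and the Reg lectins all lie below 0.

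Of 5 measured Reg family lectins, which bind bacterial cell walls or act as growth factors, 3 were lower, 0 higher and 2 neither (5 lower with plain CPM), and Reg3b went from 57652 to 23636 counts (log2 ratio -0.93, -0.95 to -0.91) and Reg3g from 21334 to 6327 (-1.40). The odds ratio of the member sum, fasted over fed, was 2.10 to the Reg sum (2.06 to 2.13) and 1.32 to the goblet marker sum (1.31 to 1.34). Markers of other cell types were set beside all measured genes, of which 17.3% were higher and 17.3% lower (8.86% and 31.2% with plain CPM). Of 10 measured enterocyte markers 6 were higher and 0 lower (5 and 1 with plain CPM), at summed shares of 4.92% and 9.15% of gene counts. Log2 ratios were 1.66 for Apoa1, 3.40 for Apoa4 and -0.44 for Fabp6, the 1 called lower with plain CPM (-0.76). Of 7 crypt stem cell markers 0 were higher and 3 lower (4 lower with plain CPM), at summed shares of 0.164% and 0.0480%. Most of that sum was Olfm4, with 7932 and 1854 counts (log2 ratio -1.74). Without it the sum was 1160 and 757 counts (-0.26), and Lgr5, the Wnt-linked stem cell receptor, had 281 and 249 (0.18, -0.071 to 0.43). Of 10 macrophage markers 1 was higher and 1 lower (0 higher and 3 lower with plain CPM), at a median log2 ratio of 0.17 (-0.15 with plain CPM). Their summed shares were 0.0672% and 0.0556%, a log2 ratio of 0.049 (-0.021 to 0.12) under TMM and -0.27 with plain CPM. Under TMM that sum was within counting error, and its sign depends on the scaling. On the log2 scale C1qb had 0.53, Csf1r 0.066 and Itgam -1.25. The part of cell type make-up in the members' values was not tested.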

How the data were processed

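Ribosome-protected fragments of ileum were sequenced from fed and from fasted mice, 1 library per group. The deposited values are whole-number counts of reads for each gene symbol, not normalized. Per the submitters' processing notes, HTSeq, STAR, Bowtie 1.1.2 and cutadapt were used, on build mm10, with no role or order named. For annotation, strand setting and footprint length filter: not given in the sources used here. Rows of reads assigned to no gene were left out of library sizes. NA was read as 0.

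Counts were scaled with TMM (edgeR 4.0.16, R 4.3.3, for scaling only). Ratios carry exact Clopper-Pearson intervals, odds ratios exact conditional ones (scipy 1.17.1). List medians use 0.5 added counts. A count of 0 allows up to 3 counts, or 0.483 (fed) and 0.617 (fasted) TMM-scaled CPM. The counting functions were tested on simulated data. Coding sequences, coordinates (1-based) and unique windows came from GENCODE vM21 transcripts; copies outside annotated transcripts were not searched. RefSeq names are from GRCm38.p6.

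The members and gene lists were chosen with earlier results of these data known. Named genes are the members, every measured gene of the Paneth lists, up to 3 per other list (highest and lowest by the interval bound nearest to 1, most abundant), Hes1, Lyz2 and the 3 genes nearest in ratio to the summed members. Muc2, Slc10a2, Lgr5, AY761185, Ang, Ang5, Ang6 and the defensin sequence groups were chosen after their values were seen. Alternatives were plain CPM, DESeq2 1.42.0 size factors, upper-quartile factors, TMM without dominant genes, other count minimums, thresholds, intervals and added counts, other sums and references, and 34-base windows.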

Additional observations from a re-analysis of the deposited data

How the results depend on the processing

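Values were recomputed under each alternative, and 32 of 35 alternative member ratios kept their direction and call. These 35 include 3 sums over near-identical copies, an alternative chosen after seeing the data, under which Defa35 went from 2.39 to 1.28. Most of the rest could hardly differ from TMM. Upper-quartile factors, DESeq2 size factors and TMM without dominant genes shift every log2 ratio by only -0.022, -0.0041 and -0.0006. Plain CPM (-0.32) was the only scaling far from TMM, so the tally of 32 says little about scaling. The number of members higher in the fasted library went from 4 to 2 with a minimum of 200 counts, which drops Pla2g2a and Defa35, and the number lower from 1 to 0 at a 2-fold threshold. The Lyz1 log2 ratio of 0.0074 became -0.32 with plain CPM and -0.014 with upper-quartile factors, and its share ratio within the members went from 0.984 to 1.05 when the 3 defensins were left out of the sum. Mmp7 passed 1.5-fold under TMM (log2 ratio 0.66) and not with plain CPM (0.34). DESeq2 size factors and TMM without ribosomal protein, mitochondrial and the 20 most abundant genes changed no member's call. With 34-base windows the unique share became 50.2% for AY761184, 36.6% for Defa26 and 23.2% for Defa35. No paired analysis was possible because each group has 1 library. The low counts of Defa35 and Pla2g2a limit their precision to the intervals given.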

Other observations

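Relatives of the member enzymes were read from the same tables. In the ribonuclease A family, Rnase4 went from 784 to 1424 counts (log2 ratio 1.22, 1.09 to 1.34). Its annotated span contains that of Ang on the same strand, so the values of these genes need not be independent. Rnase6, expressed in myeloid cells, had 54 and 20 counts (-1.08, -1.90 to -0.31). Ang, the paralog of Ang4, had 204 and 264 counts (ratio 1.66; neither with plain CPM), against 0.856 for Ang4. Ang5 and Ang6 had at most 3 counts in a library. Among secreted phospholipases A2, Pla2g12b had 246 and 312 counts (0.70, 0.45 to 0.95), the 1 of 4 measured relatives of Pla2g2a that was higher, and it was neither with plain CPM. Among 10 measured metalloproteinases other than Mmp7, 4 were lower, 1 higher and 5 neither (6 lower with plain CPM). Mmp9, a gelatinase of myeloid cells, had 339 and 103 counts (-1.36, -1.70 to -1.04), Mmp14, a membrane-bound collagenase, 364 and 546 (0.94, 0.75 to 1.14), and Mmp2 892 and 632 (-0.14, -0.29 to 0.0070).

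Of 1754 genes with at least 1000 counts outside the members, 121 had a log2 ratio within 0.05 of that of the summed members, the nearest being Arhgef16, Tm9sf2 and Clptm1. With 2 libraries such likeness is a single number and was not tested. AY761185, the first gene along the alpha-defensin cluster, was unique over 98.8% of its coding windows and had 3 fed and 1 fasted counts. The row was looked up after the values of its relatives had been seen.

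Markers of further secretory cells differed in direction. Of 10 measured enteroendocrine markers 5 were higher, 0 lower and 5 neither (3 higher with plain CPM). Chga, a granule protein, had 498 and 1095 counts (log2 ratio 1.49, 1.34 to 1.65), and the peptide hormone gene Nts 1025 and 1131 (0.50). Of 7 measured tuft cell markers 6 were lower and 1 neither under both scalings. Dclk1, a tuft cell kinase, had 204 and 65 counts (-1.29, -1.72 to -0.89), and Ptgs1, a prostaglandin synthase, 437 and 452 (0.40).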
